A study of Arabidopsis thaliana with 8 samples.

Results

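The comparison set germinating seedlings of the Arabidopsis thaliana mutant ahg3-1 against seedlings of the Columbia wild type, both on medium with 0.5 uM abscisic acid (ABA). It used 4 of the 8 arrays of the series, 2 of ahg3-1 and 2 of wild type on ABA, chosen by their titles, with all 22246 probe sets. The other arrays were 2 of the mutant ahg1-1 on 0.5 uM ABA and 2 of the wild type on medium without ABA. Seeds of every group spent 4 days at 4 °C before germinating for 2 days at 23 °C in a cycle of 16 h light and 8 h dark, on MS medium containing 2% sucrose. The labels call both mutants ABA hypersensitive, and the 2 mutations lie in different members of the PP2C family of protein phosphatases. RNA came from whole seedlings, so fewer cells of a type and less RNA per cell cannot be told apart in any value given here. The labels do not state whether both arrays of a group represent separate cultures. P-values thus describe the spread among these arrays alone, and that spread may be technical.

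ABA keeps a mature seed dormant and slows its germination. When ABA binds its receptors, they block the PP2C phosphatases, which releases SnRK2 kinases to activate bZIP transcription factors such as those of the ABI5 family. Those factors switch on genes of the seed program, among them late embryogenesis abundant (LEA) proteins and seed storage proteins, while greening and cell expansion wait. Loss of a PP2C of this pathway makes seeds more sensitive to ABA. AHG1 and AHG3 had no probe set with a single named gene and are not analysed here, so the label ahg3-1 was not checked on the mutated gene.

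The 4 arrays did not resemble each other in the way their labels would sort them. Replicate 2 of ahg3-1 and replicate 2 of wild type were the most alike of all pairs of arrays in the series, with Pearson's r = 0.996 across probe sets. Replicate 1 of wild type on ABA stood apart: its r was 0.973 with replicate 1 of ahg3-1, 0.927 with replicate 2 of its own group and 0.946 with replicate 1 of the wild type without ABA. Replicate 1 of ahg3-1 reached r = 0.992 with replicate 1 of ahg1-1. Differences between ahg3-1 and wild type are therefore given within each replicate number as well, and those within number 2 do not use the wild-type array that stood apart.

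Over all probe sets, log2 differences of ahg3-1 minus wild type had a standard deviation of 0.455 within number 1 and of 0.178 within number 2, a ratio of 2.56. The 2 sets of differences share no array, and across probe sets their Pearson's r was 0.32, or 0.40 among the 11123 brighter probe sets, given as a description since genes are not independent replicates. Within number 1, 236 probe sets (1.06%) stood at least 2-fold higher in ahg3-1 and 519 (2.33%) at least 2-fold lower. Of the 236, 205 were also higher within number 2, where their median difference was 0.18. Of the 519, 397 were also lower within number 2, with a median of -0.15 there and of -1.43 within number 1. Within both numbers 6854 probe sets were higher in ahg3-1 (30.8%) and 6443 lower (29%). Thus most probe sets with a large difference in number 1 kept its sign in number 2 at a much smaller size.

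No probe set passed the test between ahg3-1 and wild type: 0 of 22246 (0%) had an adjusted p below 0.05 by limma with the replicate number as a block, and the lowest adjusted p was 0.878. Below an unadjusted p of 0.05 lay 593 probe sets with higher values in ahg3-1 (2.67%) and 389 with lower values (1.75%). Both ahg3-1 arrays lay above both wild-type arrays for 1644 probe sets (7.39%), and below both for 1826 (8.21%). List counts below are to be read beside these shares, and beside the 30.8% higher and 29% lower within both numbers. The shares without overlap depend on brightness: among the 11123 brighter probe sets 1025 were higher without overlap and 501 lower. With 2 arrays a group, a lack of overlap is a description and not a test. Every gene described from here on failed the adjusted test, and "higher" and "lower" describe its measured values in ahg3-1 relative to wild type.

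**Figure D1:**
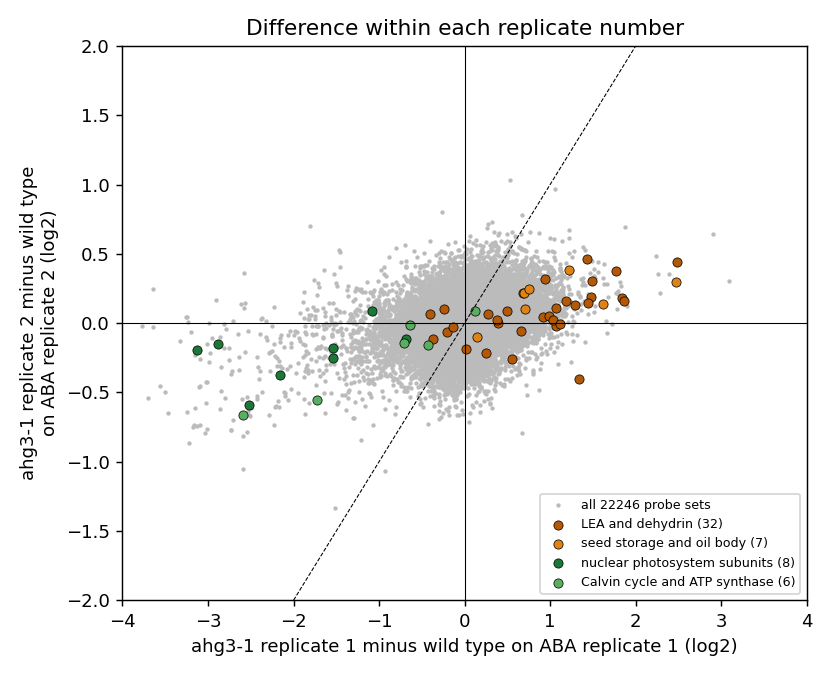
Each point is a probe set, with its log2 difference of ahg3-1 minus wild type on ABA within replicate number 1 on the x axis and within number 2 on the y axis; the dashed line marks equal differences, and coloured points are genes of 4 lists. The cloud is wider along x (standard deviation 0.455) than along y (0.178), with LEA and storage genes mostly to the right and photosynthesis genes to the left.

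EEL, a bZIP factor that binds ABA-responsive elements in seeds, was the only 1 of 30 core ABA signalling genes looked for that had a probe set with a single named gene. Its log2 level was 7.38 and 7.78 in the ahg3-1 arrays, against 6.62 and 7.54 in wild type on ABA. The ahg3-1 values were the higher ones within each number, although replicate 1 of ahg3-1 lay below replicate 2 of wild type. The difference was 0.50 ± 0.18 (SE, n = 2 each; 95% interval 0.08 to 0.92), at 0.76 within number 1 and 0.25 within number 2. In wild type without ABA EEL stood at 4.61 and 5.51.

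LEA proteins and dehydrins are hydrophilic proteins that shield membranes and enzymes in the dry seed. Of 48 such genes looked for, 32 were measured. Within both numbers 20 of the 32 were higher in ahg3-1 and 3 were lower, beside 30.8% and 29% of all probe sets. The test was passed by 0 of the 32. COR47, a dehydrin counted with the cold-regulated genes below, is not among the 32 and was lower within both numbers (-1.43 and -0.16). The median log2 difference of the 32 was 0.50, beside 0.00 over all probe sets. It was 0.96 within number 1 and 0.07 within number 2. For 5 members both ahg3-1 arrays lay above both wild-type arrays, and for 2 below, beside 7.39% and 8.21% of all probe sets. The list's median level was 9.53 and 10.02 in the ahg3-1 arrays, and 8.15 and 9.83 in wild type on ABA, so that the first wild-type array was the low one. Without ABA the wild-type medians were 4.72 and 4.89.

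Among LEA genes, AT3G22490 had the largest difference. Its level was 8.91 and 9.07 in ahg3-1, against 6.43 and 8.63 in wild type, a difference of 1.46 ± 0.55 (SE, n = 2 each; limma, adjusted p = 0.878). The ahg3-1 arrays lay above both wild-type arrays, by 2.48 within number 1 and 0.44 within number 2. AT5G44310 stood at 9.65 and 10.49 in ahg3-1, against 8.22 and 10.03 in wild type, and AtLEA4-1 at 10.91 and 11.73 against 9.43 and 11.54. Both were higher within each number, by 1.43 and 0.46 for AT5G44310 and by 1.48 and 0.19 for AtLEA4-1. AT4G21020, at 10.70 and 11.50 in ahg3-1 against 9.75 and 11.19 in wild type, differed by 0.63 ± 0.19. Not every member went the same way: M17 differed by 1.33 within number 1 and -0.40 within number 2, and AT5G27980 was lower in both (-0.37 and -0.12).

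Storage proteins and oleosins fill the protein bodies and oil bodies on which a seedling feeds. Of the 7 measured of 19 looked for, 6 were higher in ahg3-1 within both numbers, 0 were lower within both, and 4 had both ahg3-1 arrays above both wild-type arrays. Over all probe sets 30.8% were higher within both numbers and 7.39% were higher without overlap. The median difference was 0.50, at 0.75 within number 1 and 0.22 within number 2, the largest within-number-2 median of the 18 lists with at least 3 genes. The cupin-type gene AT2G18540 had 4.85 and 4.51 in ahg3-1, against 3.63 and 4.13 in wild type, a difference of 0.80 ± 0.23 with 1.22 within number 1 and 0.38 within number 2. Its levels are low for the array, where the 5th percentile of the values averaged 3.26. The vicilin-like AT2G28490 was far brighter, at 12.46 and 12.54 in ahg3-1 against 10.84 and 12.40 in wild type. Here the difference of 0.87 ± 0.32 came mostly from number 1 (1.61, against 0.13 within number 2). PAP85, another vicilin-like protein, showed the widest gap of the list, 2.48 within number 1 and 0.30 within number 2. OLEO3, an oleosin, differed by 0.41, at 0.71 and 0.10.

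Enzymes that process or digest stored protein were split. The papain-type protease gene AT3G54940 had 12.32 and 12.31 in ahg3-1 against 11.56 and 12.28 in wild type, and CP1, another cysteine protease, had 9.39 and 10.49 against 8.33 and 10.42. The vacuolar processing enzyme of seeds, BETA-VPE, differed by 0.33 ± 0.17 and the vegetative GAMMA-VPE by -0.35 ± 0.23, where numbers 1 and 2 gave -0.82 and 0.12. Over the 6 measured genes, 4 were higher within both numbers and 1 lower, with a median of 0.35 (0.64 and 0.06 within numbers 1 and 2). The 3 AWPM-19-like membrane protein genes each had opposite signs in the 2 numbers; AT1G04560 stood at 12.57 and 12.46 in ahg3-1 and 12.04 and 12.51 in wild type.

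**Figure D2:**
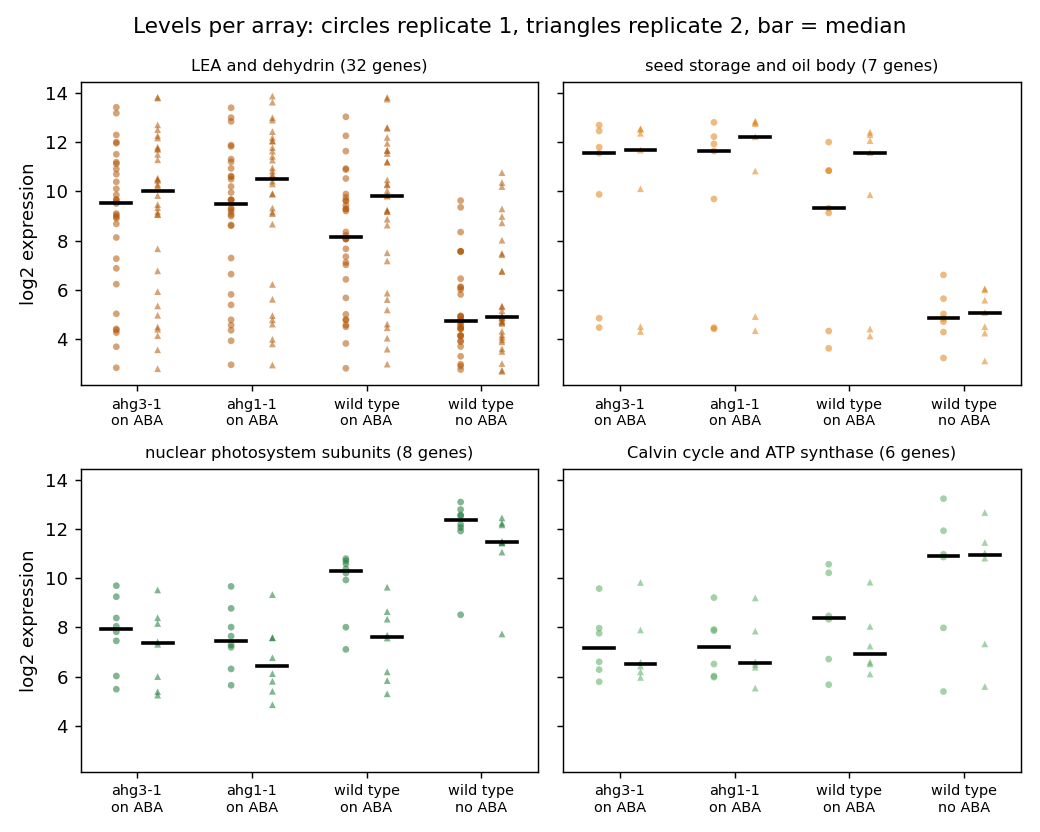
Log2 levels of each gene (points) and their median (bar) on each of the 8 arrays for 4 gene lists, with circles for replicate 1 and triangles for replicate 2. On ABA the first wild-type array has the lowest LEA median (8.15) and the highest nuclear photosystem median (10.29), while the second (9.83 and 7.63) lies near both ahg3-1 arrays.

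Genes of the photosynthetic apparatus, which seedlings switch on as they green, were lower in ahg3-1. All 8 measured nuclear genes for photosystem or light-harvesting subunits were lower within number 1. Within both numbers 7 of the 8 were lower, beside 29% of all probe sets, LHCB4.3 being the exception (-1.08 and 0.08). The median difference was -1.08, with -1.85 within number 1 and -0.19 within number 2. Median levels were 7.93 and 7.36 in the ahg3-1 arrays, against 10.29 and 7.63 in wild type on ABA and 12.35 and 11.47 in wild type without ABA. Again the first wild-type array was the one apart, on the side of the arrays without ABA.

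PSAN, a small subunit of photosystem I, was the 1 member of 8 without overlap, beside 8.21% of all probe sets lower without overlap. It had 5.49 and 5.25 in ahg3-1, against 8.01 and 5.84 in wild type on ABA, a difference of -1.55 ± 0.41 (SE, n = 2 each; limma, adjusted p = 0.878), at -2.52 and -0.59 within numbers 1 and 2. PSAE-1, also of photosystem I, stood at 8.05 and 7.31 in ahg3-1 against 10.21 and 7.69 in wild type. For PSAE-1 the difference of -1.27 ± 0.42 combined -2.16 and -0.37. The photosystem II proteins PSBY and PSBW differed by -0.86 ± 0.29 and -0.90 ± 0.36. LHCB4.2, a minor antenna protein of photosystem II, showed the widest gap between the numbers: 7.45 and 6.003 in ahg3-1 against 10.59 and 6.20 in wild type, or -3.13 and -0.19.

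The Calvin cycle fixes carbon with the energy that the photosystems supply, and its genes named here lay on the same side. RCA, the activase of Rubisco, had 7.97 and 6.58 in ahg3-1, against 10.56 and 7.24 in wild type, a difference of -1.63 ± 0.55. The number 2 difference of RCA, -0.66, was the largest of the 6 genes in this list. PRK, phosphoribulokinase, had 6.60 and 5.97 against 8.33 and 6.52 (-1.14 ± 0.38, at -1.73 and -0.55). SBPASE, sedoheptulose bisphosphatase, had 7.76 and 7.90 in ahg3-1 against 8.47 and 8.04 in wild type, with both ahg3-1 arrays below both wild-type arrays. The list of 6 holds Calvin cycle and ATP synthase genes, among them ATPC1 and ATPC2 of the ATP synthase. Of the 6 genes 5 were lower within both numbers, ATPC2 being higher in both (0.12 and 0.09). Their median was -0.38 (-0.67 and -0.15 within the numbers). In chlorophyll synthesis, 5 of 11 genes were lower within both numbers and 3 higher. The median difference of the 11 was -0.18, at -0.23 within number 1 and 0.01 within number 2. PORB, a light-dependent protochlorophyllide reductase, had 7.80 and 6.58 in ahg3-1 against 9.44 and 7.23 in wild type, -1.14 ± 0.79. HEME2, uroporphyrinogen decarboxylase, differed by -0.39 ± 0.18 with no overlap between the groups.

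The plastid genome encodes core photosystem, ATP synthase and NDH subunits beside its own ribosome and polymerase parts. Of 47 photosynthesis genes of the plastid genome, 25 were lower in ahg3-1 within both numbers, 0 were higher within both, and 11 had no overlap between the groups, all 11 lower. Over all probe sets 29% were lower within both numbers and 8.21% were lower without overlap. Together they had a median of -0.28 (-0.45 in number 1 and -0.05 in number 2). rbcL, the large subunit of Rubisco, had 6.68 and 7.17 in ahg3-1, against 7.58 and 7.47 in wild type, a difference of -0.60 ± 0.18 (SE, n = 2 each). petB, cytochrome b6, had 11.15 and 11.31 against 12.03 and 11.55 (-0.56 ± 0.19). atpF, a subunit of the ATP synthase, differed by nearly the same amount in both numbers, -0.41 and -0.39, with 5.65 and 7.75 in ahg3-1 and 6.06 and 8.14 in wild type. petG, by contrast, differed by -1.46 within number 1 and 0.51 within number 2.

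Of 22 other plastid genes, mostly for ribosomal proteins and RNA polymerase, 6 were higher within both numbers and 3 lower, with a median of 0.10 (0.29 within number 1 and -0.04 within number 2). rps15, a ribosomal protein, stood at 5.33 and 6.24 in ahg3-1 against 4.26 and 5.98 in wild type, 1.06 and 0.26 higher in the 2 numbers. rps19 stood at 9.28 and 11.96 against 7.56 and 11.96, a gap of 1.72 within number 1 and of -0.01 within number 2. In the mitochondrial genome 3 of 15 genes were higher within both numbers and 8 lower, with a median of -0.07 that was nearly equal in both (-0.06 and -0.08). nad4, a subunit of complex I, had 6.90 and 6.15 in ahg3-1 against 6.12 and 5.77 in wild type (0.59 ± 0.34), and cox2, of cytochrome oxidase, had 5.26 and 5.05 against 5.54 and 5.34 (-0.29 ± 0.19). Neither nad4 nor cox2 overlapped between the groups, and they differed in opposite directions.

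**Figure D3:**
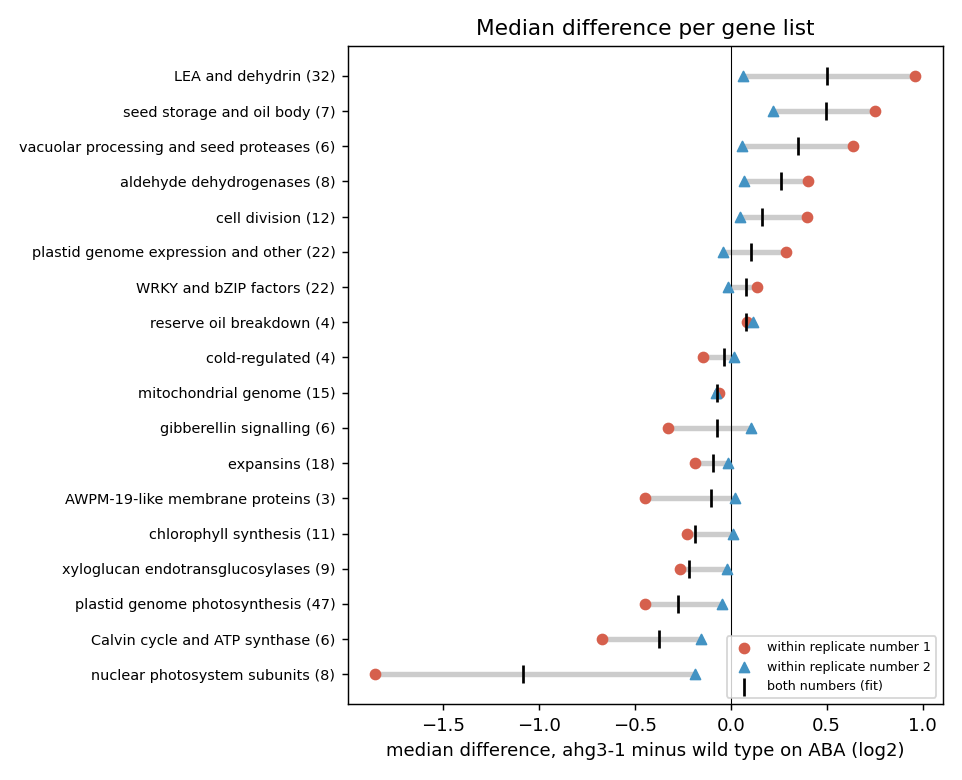
Median log2 difference of ahg3-1 minus wild type on ABA for each gene list with at least 3 measured genes (number of genes in brackets), within replicate number 1 (circles), within number 2 (triangles) and from the fit over both (ticks). LEA, storage and photosystem genes lie farthest from 0 within number 1 (0.96, 0.75 and -1.85), and all 3 medians keep their sign within number 2 at 0.07, 0.22 and -0.19.

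Expansins and xyloglucan endotransglucosylases loosen the cell wall so that the root can emerge and cells lengthen. The 18 expansin genes had a median difference of -0.09, with 2 higher and 6 lower within both numbers. EXPB1 had 5.53 and 5.09 in ahg3-1, against 7.05 and 5.25 in wild type, -0.84 ± 0.34. EXPA24, with low values throughout, was lower without overlap, 4.16 and 4.09 against 4.73 and 4.26. The root hair expansins EXPA7 and EXPA18, the only measured root hair markers, had 6.61 and 5.31 and 5.95 and 5.16 in ahg3-1, against 8.56 and 5.82 and 8.28 and 5.14 in wild type. EXPA18 thus differed by -2.33 within number 1 and 0.01 within number 2, and EXPA7 by -1.94 and -0.51.

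Among xyloglucan endotransglucosylases, 2 of 9 genes had opposite signs in the 2 numbers. XTH32 had 6.62 and 5.29 in ahg3-1 against 9.32 and 5.28 in wild type, a difference of -2.71 within number 1 and of 0.02 within number 2. XTH20 was lower in both (-0.90 and -0.28) and XTH33 higher in both (0.15 and 0.43), each without overlap. Of 9 genes 2 were higher and 5 lower within both numbers, with a median of -0.22. GID1B, a receptor of the germination-promoting hormone gibberellin, had 4.92 and 4.57 in ahg3-1 against 6.25 and 4.78 in wild type (-0.77 ± 0.25, at -1.33 and -0.21). Of the other 5 gibberellin signalling genes 4 had opposite signs in the 2 numbers, and SPY was 0.20 and 0.02 higher.

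Of 12 cell division genes 6 were higher in ahg3-1 within both numbers and 1 lower, with a median difference of 0.17 (0.40 and 0.05 within numbers 1 and 2). AUR2, an Aurora kinase of mitosis, had 7.14 and 7.25 in ahg3-1 against 6.57 and 7.12 in wild type, without overlap. The histone genes HTB4 and HTB11 differed by 0.60 and 0.72 within number 1 and by 0.21 and 0.19 within number 2. Aldehyde dehydrogenases, enzymes that detoxify aldehydes, showed 6 of 8 genes higher within both numbers and 1 lower. ALDH22A1 had 7.54 and 7.75 in ahg3-1 against 7.14 and 7.54 in wild type, while ALDH11A3 had 8.53 and 8.08 against 9.38 and 8.30.

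Transcription factors of the WRKY and bZIP families were evenly split, 6 of 22 higher and 6 lower within both numbers. BZIP61 had 7.55 and 7.47 in ahg3-1 against 6.91 and 7.11 in wild type, 0.50 ± 0.28. BZIP60, a factor of the unfolded protein response, differed by 0.25 ± 0.17, bZIP44 by -0.32 ± 0.25 and HYH by 0.59 within number 1 and -0.02 within number 2. Of the cold-regulated genes COR47, a dehydrin, had 7.41 and 7.21 in ahg3-1 against 8.83 and 7.37 in wild type (-0.79 ± 0.54), whereas COR15A, COR15B and COR27 differed by between -0.13 and 0.17. Breakdown of the reserve oil begins with the lipases SDP1 and SDP1-LIKE, which differed by -0.06 and 0.44, and goes on through AIM1 (0.21) and isocitrate lyase, ICL, at 13.42 and 13.30 in ahg3-1 against 13.72 and 13.18 in wild type. BAN, the only measured seed coat marker, had 6.21 and 5.63 in ahg3-1 and 6.23 and 5.77 in wild type, differences of -0.02 and -0.14.

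Genes were also ranked by the smaller of their 2 within-number differences among probe sets without overlap, and AT1G72570 came first of those higher in ahg3-1. It encodes an AP2-type transcription factor, and its level was 5.46 and 6.41 in ahg3-1 against 4.40 and 5.44 in wild type on ABA, 1.06 and 0.97 higher (1.01 ± 0.19, SE; limma, adjusted p = 0.878). The 95% interval of the difference ran from 0.57 to 1.46. It makes no allowance for the choice of the gene by these same values. AT2G30600, a BTB/POZ domain protein, was also nearly equal in both numbers, with 7.02 and 6.84 in ahg3-1 against 6.44 and 6.21 in wild type (0.59 and 0.63). AT5G16460, a seipin that helps to form oil droplets, had 5.76 and 6.20 against 4.62 and 5.61, differing by 1.14 and 0.59. AT1G22600 was the brightest of the 12, at 8.80 and 8.86 in ahg3-1 and 7.42 and 8.31 in wild type.

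The other 8 higher genes were AT1G15200, AT2G41650, AT2G17070, AT3G51940, AT1G07690, the multicopper oxidase-like gene sks15, the flavin monooxygenase gene AT1G12130 and AT5G23590, with fitted differences between 0.48 and 0.76. By the smallest unadjusted p, AT5G61140 (0.70 and 0.53 within numbers 1 and 2), AT2G34357 (0.66 and 0.53) and AT5G65440 (1.04 and 0.61) joined them. For these 3 the groups overlapped, since both number 2 arrays were brighter than both number 1 arrays; AT5G65440 had 5.24 and 6.68 in ahg3-1 and 4.20 and 6.08 in wild type. Among probe sets unnamed here, 253767_at had 11.99 and 10.70 against 10.11 and 10.01, and 263385_at 10.06 and 10.04 against 8.84 and 9.36.

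On the lower side AT3G53190, a pectate lyase of the cell wall, came first. It had 6.70 and 6.48 in ahg3-1, against 7.50 and 7.09 in wild type, -0.81 and -0.61 (-0.71 ± 0.15, SE, by limma with adjusted p = 0.878). The 95% interval, -1.06 to -0.35, again makes no allowance for the choice of the gene by these values. CYP71B23, a cytochrome P450, was about as much lower in both numbers (-0.46 and -0.44), but at 3.30 and 2.89 in ahg3-1 and 3.76 and 3.33 in wild type it lay near the bottom of the arrays. QQS, a gene without known relatives that affects starch content, had 4.25 and 3.73 in ahg3-1 against 4.68 and 4.46 in wild type, with the larger difference in number 2 (-0.43 and -0.73). The kinase-like AT2G15300 had 4.72 and 4.34 against 5.47 and 4.78, and ty2, a chloroplast thioredoxin, 6.97 and 6.91 against 7.41 and 7.33. PSAN stood second in this ranking.

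The other 6 lower genes were AT3G13980, AT1G14120, AT4G18540, AT3G05920, AT3G47250 and the pseudogene AT4G19300, with fitted differences between -1.07 and -0.43. By the smallest unadjusted p, the leucine-rich repeat genes AT1G33600 (-1.07 and -0.73) and AT1G49750 (-1.20 and -0.55), AT1G21500 (-2.21 and -0.60) and CLE44 (-0.71 and -0.49) were added. CLE44 encodes a peptide that maintains the stem cells of the vascular tissue, and it had 5.01 and 4.42 in ahg3-1 against 5.72 and 4.91 in wild type. The unnamed probe sets 247717_at and 245701_at had 8.97 and 8.97 and 5.78 and 5.71 in ahg3-1, against 10.19 and 9.81 and 7.27 and 6.30 in wild type.

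**Figure D4:**
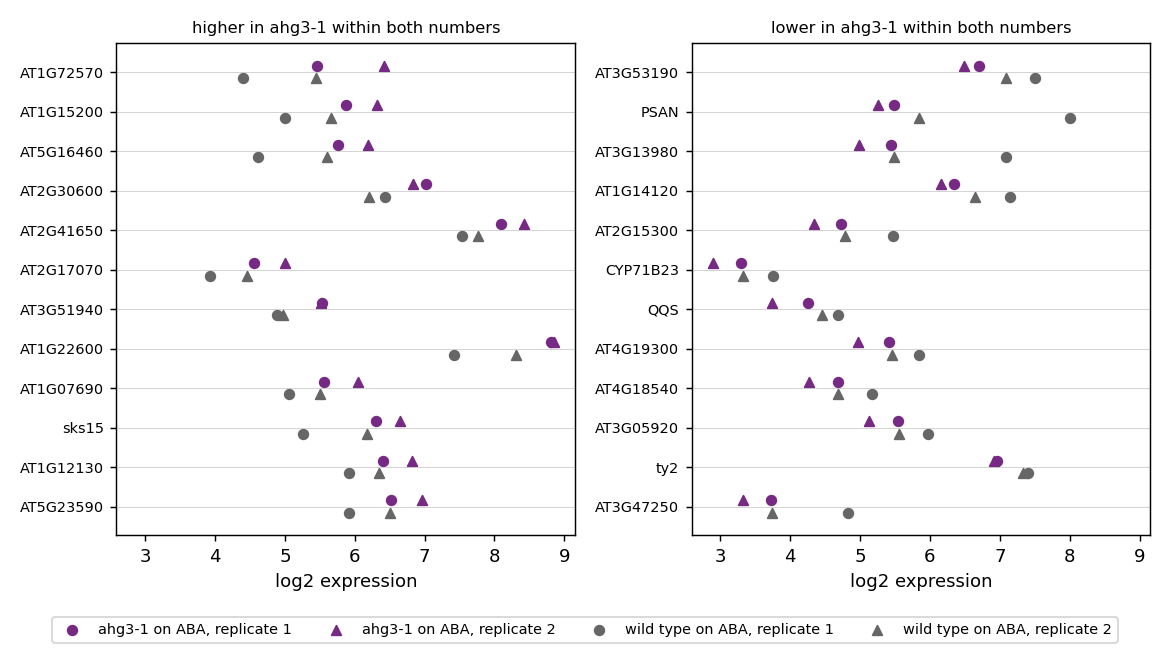
Log2 levels on the 4 arrays for the 12 named genes per direction ranked by the smaller of their 2 within-number differences, purple for ahg3-1 and grey for wild type on ABA, circles for replicate 1 and triangles for replicate 2. In every gene shown both ahg3-1 values lie on 1 side of both wild-type values, as the choice of genes requires; the pairs of AT1G72570 are 1.06 and 0.97 apart.

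Within number 2, only 1 probe set was at least 2-fold higher in ahg3-1 (0.0045%) and 3 at least 2-fold lower (0.0135%); all 4 are named here after their values were seen. AT4G23680, of the Bet v 1 family, had 9.03 and 5.81 in ahg3-1 against 10.54 and 7.15 in wild type, log2 differences of -1.51 and -1.34. AT2G47540 had 7.65 and 4.85 against 8.57 and 5.92, and 267002_s_at, unnamed here, 9.68 and 6.82 against 12.27 and 7.87. The higher one, 264450_s_at, stood at 3.58 and 5.80 in ahg3-1 against 3.05 and 4.77 in wild type. In each of the 4 the arrays of number 1 and number 2 differed by more than ahg3-1 and wild type did within number 2, and the groups overlapped. The SE of the 3 lower ones was 0.57 to 1.26, and none had an adjusted p below 0.878.

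The difference between wild type with and without ABA was fitted in the same model, where 1358 probe sets passed as higher (6.1%) and 1441 as lower (6.48%) with ABA. That comparison shares the wild-type ABA arrays with the one described here, so the values are only set side by side. Of the 32 LEA genes 20 passed as higher with ABA and 0 as lower, and of the 7 storage and oil body genes 5 passed as higher. All 8 nuclear photosystem genes and 26 of the 47 plastid photosynthesis genes passed as lower. For AT1G72570 the wild-type levels were 4.40 and 5.44 with ABA and 3.72 and 4.31 without it. For AT3G53190 they were 7.50 and 7.09 with ABA and 8.37 and 8.24 without it. ABA slows germination, and the stage that the seedlings of each group had reached is not given in the labels, so stage and genotype cannot be told apart here.

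The ahg1-1 arrays were compared directly with the ahg3-1 arrays. By limma 1 probe set differed between the mutants (0.0045%), 253894_at, unnamed here, at 6.36 and 7.58 in ahg1-1 against 2.88 and 3.07 in ahg3-1 (4.00 ± 0.30, SE, n = 2 each; limma, adjusted p = 0.0442). Its level in wild type on ABA, 2.77 and 3.15, was near that of ahg3-1, and both lie below the average 5th percentile of the arrays, 3.26, so the size of the difference is uncertain. No member of any list passed. List medians of ahg1-1 minus ahg3-1 were 0.11 for LEA genes, 0.12 for storage and oil body genes, -0.27 for nuclear photosystem genes and -0.26 for cell division genes. Against wild type on ABA, whose arrays both comparisons share, the ahg1-1 medians were 0.61 for LEA, 0.81 for storage and -1.61 for photosystem genes, beside 0.50, 0.50 and -1.08 for ahg3-1. AT1G72570 stood at 5.55 and 5.99 in ahg1-1 against 5.46 and 6.41 in ahg3-1, and AT3G53190 at 6.73 and 6.37 against 6.70 and 6.48. The unnamed 253767_at had 12.54 and 12.89 in ahg1-1 against 11.99 and 10.70 in ahg3-1, and sks15 had 5.67 and 5.13 against 6.31 and 6.65. The mutants' arrays did not overlap for 253767_at and sks15, and neither passed the test.

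Single arrays decided much of the size of these differences. Without replicate 1 of wild type on ABA the LEA median came to 0.15 and the photosystem median to -0.25. Leaving out replicate 1 of ahg3-1 instead also brought both nearer to 0, at 0.21 and -0.81. They were 0.70 and -1.84 without replicate 2 of wild type on ABA, and 0.81 and -1.45 without replicate 2 of ahg3-1. Without replicate 2 of wild type on ABA 6 probe sets passed as lower in ahg3-1: LHCB4.1, ECS1, 246596_at, 255248_at, 261769_at and 266996_at. LHCB4.1, another minor antenna protein, then differed by -2.84 ± 0.20 (limma, adjusted p = 0.0424). With 1 wild-type array left on ABA, that SE and p take their spread from the other groups and assume that the lone array varies as they do. Its levels were 7.82 and 7.41 in ahg3-1 against 10.71 and 7.57 in wild type, so that only the remaining wild-type array was high. The same held for the other 5, and the 6 were named after their values were seen.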

How the data were processed

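RNA of germinating seedlings was hybridised to 1-colour arrays, 1 per sample. The values are log2 expression per probe set as deposited, made with RMA per the submitters' processing notes (background correction, quantile normalization and summary of the probes of a set); its version is not given in the sources used here. They were used without a filter, and 0 columns went unused. The medians of the arrays ran from 5.91 to 5.97, and no 2 arrays held identical values. Groups and replicate numbers came from the titles. The free-text descriptions repeat the wording for untreated wild type in every sample and were not used.

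limma 3.58.1 in R 4.3.3 fitted the 4 group means on all 8 arrays with the replicate number as a block, as the definition of the comparison asks, leaving 3 residual degrees of freedom. Empirical Bayes moderation followed. Tests were two-sided, with Benjamini-Hochberg adjustment over 22246 probe sets and a threshold of 0.05. The fit was tested on simulated data with independent noise added to fitted values. No simulated array was set apart as replicate 1 of wild type on ABA is, so the simulation does not bear on that array. Deviations of same-numbered arrays from their group means correlated with r between 0.50 and 0.84 in all 6 pairs of groups, though the labels do not say what the number marks. Within-number differences are 1 array minus 1 array, with no test. With 2 arrays a group, the precision of each value is limited.

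Of the probe sets 13072 had 1 gene in the platform annotation, 12998 of them found in the TAIR10.1 gene table by gene identifier, 503 had several genes and 8671 are unnamed here. Lists took 1 probe set per gene, the one with the highest mean, and are described by counts and medians. Named genes were the core ABA list, the 12 per direction with the largest smaller-of-2 within-number difference without overlap, the 6 per direction with the smallest unadjusted p, per list the 4 with the smallest p and the one with the widest gap between numbers, and 2 unnamed probe sets per direction. The members and lists were chosen with earlier results of these data known. Alternatives changed the block, the arrays fitted, the normalization, the filter on dim probe sets and the moderation, and left out each array.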

Additional observations from a re-analysis of the deposited data

Results flagged for a closer look

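AT2G17070 was higher in both ahg3-1 arrays than in the same-numbered wild-type arrays on ABA and lower in both ahg1-1 arrays. Its log2 levels were 4.56 and 5.001 in ahg3-1 and 3.84 and 4.23 in ahg1-1, against 3.93 and 4.45 in wild type. The difference of ahg1-1 minus ahg3-1 was -0.75, and whether the mutants differ was not tested beyond the fit over all probe sets, where it did not pass (limma, adjusted p = 1.00). COR15B, a cold-regulated protein of the chloroplast, showed the same opposite signs with smaller differences. It stood at 5.09 and 4.65 in ahg3-1 and 4.67 and 4.54 in ahg1-1, against 4.75 and 4.64 in wild type, and ahg1-1 minus ahg3-1 was -0.27, which was not tested separately either. Within number 2 ahg3-1 and wild type differed by only 0.001 for COR15B. The unnamed probe set 253894_at differed between the mutants in the test itself, with ahg1-1 minus ahg3-1 at 4.00 (limma, adjusted p = 0.0442).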

How the results depend on the processing

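Without the replicate block, 0 probe sets passed as well, 18 lay below an unadjusted p of 0.05 against 982 with it, and the median SE was 0.277 against 0.178; the 1 call between ahg1-1 and ahg3-1 became 0. The count below an unadjusted p of 0.05 was 1627 with only the 4 arrays compared, 1825 with the 6 arrays on ABA, 542 without dim probe sets, and 62 to 2695 with 1 array left out. Probe sets without overlap numbered 1025 higher and 501 lower without dim probe sets, which leaves 11123 to test, and 1644 to 8160 higher and 1826 to 9159 lower with 1 array left out. Calls between ahg1-1 and ahg3-1 were 4 with the 6 arrays on ABA, 0 without dim probe sets, 2 with trend and robust moderation and 0 to 4 with 1 array left out. Between ahg3-1 and wild type on ABA, 0 passed as higher in every setting run and 0 to 6 as lower, the 6 without replicate 2 of wild type on ABA. Leaving out an array leaves 1 in its group, which is assumed to vary like the other groups. The LEA median lay between 0.15 and 0.81 and the photosystem median between -1.84 and -0.25 with 1 array left out, and both kept their sign in every setting run. The 112 named genes include many chosen for agreement of both numbers or a small unadjusted p. Sign changes among the 112 thus do not describe genes at large. Of the 112, 19 changed sign when 1 array was left out, 14 of them without replicate 1 of wild type on ABA. Their lowest and highest values with 1 array left out were AT5G18970 -0.45 to 0.029, AT1G29520 -0.57 to 0.36, GAMMA-VPE -0.70 to 0.0014, petG -1.23 to 0.28, nad6 -0.27 to 0.18, XTH32 -2.74 to 0.045, XTH26 -0.95 to 0.016, GID1C -0.45 to 0.15, SLY2 -0.32 to 0.10, SPY -0.029 to 0.25, ICL -0.46 to 0.28, SDP1 -0.29 to 0.18, COR47 -1.64 to 0.056, COR15A -0.38 to 0.12, COR27 -0.033 to 0.16, AUR3 -0.022 to 0.64, BUBR1 -0.24 to 0.43, BAN -0.17 to 0.013, HYH -0.075 to 0.65. Only nad6 changed sign in another setting, to 0.020 after cyclic loess. The cause of these shifts was not tested.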
